A study of Mus musculus with 12 samples.

Results

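The 10 genes described here encode chaperones of the endoplasmic reticulum (ER) and the transcription factor that helps to induce them: Hspa5, Hsp90b1, Hyou1, Sdf2l1, Dnajb9, Dnajb11, Pdia4, Creld2, Manf and Xbp1. They were chosen by symbol in the array's probe annotation. All 10 were found among 19938 named genes, each represented by its brightest probe on average over the 12 arrays. Expression was measured in homogenised liver from 12 male C57BL/6J mice, with 1 one-colour Affymetrix array per animal. The groups were 3 mTERT KO mice, 3 mTERT WT mice, 3 mTR KO mice and 3 mTR WT mice. mTERT KO mice lacked the reverse transcriptase of telomerase and mTR KO mice its RNA template, both in the first generation (G1), and WT mice were wild-type littermates. The number in each sample label was read as the litter, which gives each line 3 litters, numbered as sets 1 to 3. This reading is not stated explicitly in the sources, and every comparison within a litter rests on it. In both lines KO 2 correlated more with WT 3 than with WT 2, as described under processing. WT and KO mice were matched for age and sex, and their age, the deleted exons and the cells that carry the deletion are not given in the sources used here. The comparisons ask whether loss of either part of telomerase changes gene expression in liver, and whether both losses act alike.

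Hepatocytes secrete most plasma proteins, which enter the ER unfolded. HSPA5 (BiP) binds unfolded chains and keeps the stress sensors IRE1, PERK and ATF6 inactive; when unfolded protein accumulates the sensors are released, IRE1 splices Xbp1 mRNA into an active form, ATF6 is cleaved into a transcription factor, and both raise chaperone genes, while PERK slows translation and raises ATF4. This unfolded protein response also follows feeding in the liver. Because whole tissue was measured, fewer cells of a type and less RNA per cell cannot be told apart.

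A known binding site for ATF6 with the factor NF-Y is the ER stress response element, which reads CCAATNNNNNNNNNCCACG. A shorter form, element II, reads ATTGG, any 1 base and CCACG, and an XBP1 site reads TGACGTGG. These motifs were searched on both strands from 250 bases before to 50 bases after the annotated start. Windows from RefSeq (GRCm38.p6) were used for 8 of the 10 genes, and those of Hyou1 and Manf were not analysed here. The ER stress response element was found in 3 of these 8 windows and in 0.119% of 32851 windows of all genes. Element II was found in 1 of 8 and in 0.037% of all windows, and the XBP1 site in 0 of 8 and in 0.676% of all. The CCACG core, which is part of the ER stress response element and of element II, stood in 7 of 8, but also in 32.8% of all windows. A match is a run of letters and no measured binding. The 4 windows that hold the ER stress response element or element II follow, with that of Xbp1, in which none of the 4 motifs was found. They are written 5′ to 3′ on the strand of the gene, and capitals mark the ER stress response element or element II.
Hspa5, chr2:34771840-34772139, plus strand: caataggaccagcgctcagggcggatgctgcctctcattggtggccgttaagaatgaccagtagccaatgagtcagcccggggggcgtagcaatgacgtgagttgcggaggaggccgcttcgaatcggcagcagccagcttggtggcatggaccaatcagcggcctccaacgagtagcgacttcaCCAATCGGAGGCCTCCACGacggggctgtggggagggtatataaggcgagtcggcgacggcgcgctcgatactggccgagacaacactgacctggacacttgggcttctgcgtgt
Hsp90b1, chr10:86705395-86705694, minus strand: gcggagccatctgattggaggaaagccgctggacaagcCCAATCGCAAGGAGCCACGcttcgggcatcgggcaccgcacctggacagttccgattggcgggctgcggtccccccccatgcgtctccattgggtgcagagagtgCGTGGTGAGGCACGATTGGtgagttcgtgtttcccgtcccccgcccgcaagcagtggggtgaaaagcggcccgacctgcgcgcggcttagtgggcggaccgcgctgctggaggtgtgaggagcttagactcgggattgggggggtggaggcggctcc
Creld2, chr15:88819396-88819695, plus strand: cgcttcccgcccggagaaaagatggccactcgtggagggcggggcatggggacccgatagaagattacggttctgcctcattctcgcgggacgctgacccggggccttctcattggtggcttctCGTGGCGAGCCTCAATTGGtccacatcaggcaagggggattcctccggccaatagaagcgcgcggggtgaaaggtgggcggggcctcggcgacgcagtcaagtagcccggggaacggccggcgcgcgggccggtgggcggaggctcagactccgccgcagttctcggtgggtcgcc
Dnajb11, chr16:22857595-22857894, plus strand: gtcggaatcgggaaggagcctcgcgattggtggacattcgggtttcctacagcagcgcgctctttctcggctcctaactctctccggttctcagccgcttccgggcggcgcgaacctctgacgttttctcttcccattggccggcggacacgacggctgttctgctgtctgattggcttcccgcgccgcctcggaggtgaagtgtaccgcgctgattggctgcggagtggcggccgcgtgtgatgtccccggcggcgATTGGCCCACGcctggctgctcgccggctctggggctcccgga
Xbp1, chr11:5520391-5520690, plus strand: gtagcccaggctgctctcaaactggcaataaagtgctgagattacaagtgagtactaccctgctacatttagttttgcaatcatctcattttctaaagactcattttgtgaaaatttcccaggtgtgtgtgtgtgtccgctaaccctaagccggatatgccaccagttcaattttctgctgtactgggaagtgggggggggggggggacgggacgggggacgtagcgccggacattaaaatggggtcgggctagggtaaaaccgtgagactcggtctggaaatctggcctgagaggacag

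Relative to the start site the element lay at bases -65 to -47 in Hspa5, at -212 to -194 and, on the other strand, at -107 to -89 in Hsp90b1, and at -126 to -108 on the other strand in Creld2. Element II lay at 8 to 18 bases past the start in Dnajb11.

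Before the members, the arrays themselves differed. Array medians lay between 4.37 and 4.43 as log2 values, and 8 hepatocyte genes such as Alb averaged 12.80 to 12.93 in every array. Transcripts of pancreas acinar cells were present in 5 livers. Their mean over 19 genes was 10.02 for mTR KO 1, 8.60 for mTERT KO 1, 7.87 for mTERT WT 2, 6.49 for mTERT WT 1 and 6.2 for mTR WT 2, and it lay at 3.79 to 3.97 for the remaining 7. Of these genes 16 of 19 had a mean above the background of 4.34, taken as the 95th percentile of 1027 olfactory receptor genes, averaged over arrays. Acinar cells hold much ER and express chaperones strongly. For 12 skeletal muscle genes the mean was 6.90 in 1 liver, mTERT WT 1, 6.37 in another, mTERT WT 3, and 3.87 to 4.54 in the rest. Of 8 plasma cell genes only Sdc1, which hepatocytes also express, had a mean above background, and the list averaged 4.13 to 4.25. The 4 arrays of set 1 averaged 6.73 to 6.97 over 31 small nucleolar RNA genes, against 5.24 to 5.49 in sets 2 and 3.

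HSPA5 is the Hsp70 of the ER lumen. In log2 intensity, sets 1 to 3 in turn, Hspa5 read 10.86, 11.0 and 10.56 in the mTERT KO livers, against 11.10, 11.25 and 10.75 in their mTERT WT littermates. For Hspa5 the mTR KO livers read 10.84, 11.44 and 11.02, against 10.88, 11.07 and 10.88 in their mTR WT littermates. Each mTERT KO liver was below its own littermate, although the groups overlapped, and mTR KO 2 was the highest of the 12 livers.

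HSP90B1 (GRP94), the Hsp90 of the ER, completes the folding of selected secreted and membrane proteins. Hsp90b1 read 11.17, 11.47 and 11.44 in the mTERT KO livers, against 11.44, 11.77 and 11.48 in their mTERT WT littermates. For Hsp90b1 the mTR KO livers read 11.20, 11.83 and 11.55, against 11.23, 11.70 and 11.47 in their mTR WT littermates. The groups overlapped in both lines, and in all 4 groups the liver of set 1 was the lowest and that of set 2 the highest.

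HYOU1 (GRP170) releases ADP from HSPA5 so that it can bind again. Hyou1 read 8.87, 8.87 and 8.47 in the mTERT KO livers, against 9.45, 9.19 and 8.81 in their mTERT WT littermates, and the groups overlapped. In the mTR KO livers it read 9.12, 9.59 and 8.98, against 8.97, 8.94 and 8.77 in their mTR WT littermates, and the groups did not overlap.

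SDF2L1 works with HSPA5 and its partner DNAJB11 to keep clients from aggregating. Sdf2l1 read 7.49, 7.51 and 7.47 in the mTERT KO livers, against 7.96, 7.96 and 7.73 in their mTERT WT littermates, and the groups did not overlap. In the mTR KO livers it read 7.54, 8.43 and 7.94, against 7.42, 8.03 and 7.70 in their mTR WT littermates, and the groups overlapped.

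DNAJB11 (ERdj3) delivers unfolded chains to HSPA5. Dnajb11 read 7.81, 8.29 and 8.02 in the mTERT KO livers, against 8.28, 8.64 and 8.19 in their mTERT WT littermates. For Dnajb11 the mTR KO livers read 8.09, 8.72 and 8.46, against 7.85, 8.44 and 8.28 in their mTR WT littermates. Within each litter the mTERT KO was below and the mTR KO above its littermate, while the groups overlapped.

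DNAJB9 (ERdj4) recruits HSPA5 to the sensor IRE1 and helps to hold it inactive. Dnajb9 read 9.38, 9.0 and 8.34 in the mTERT KO livers, against 9.57, 8.93 and 7.97 in their mTERT WT littermates. For Dnajb9 the mTR KO livers read 9.53, 9.56 and 9.05, against 9.51, 9.14 and 8.57 in their mTR WT littermates. It was lowest in the set 3 liver of each group, and genotype groups overlapped.

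PDIA4 (ERp72) forms and rearranges disulfide bonds. Pdia4 read 9.57, 9.74 and 9.61 in the mTERT KO livers, against 9.74, 9.99 and 9.74 in their mTERT WT littermates. For Pdia4 the mTR KO livers read 9.57, 10.15 and 9.79, against 9.66, 9.83 and 9.81 in their mTR WT littermates. The groups overlapped in the mTR line and met at 9.74 in the mTERT line. A second, dimmer probe of the gene differed from the first: it read 6.28, 6.56 and 5.86 in the mTERT KO livers, against 6.47, 6.48 and 6.02 in their mTERT WT littermates. On that probe the mTR KO livers read 6.67, 5.90 and 6.11, against 7.39, 6.13 and 6.18 in their mTR WT littermates.

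CRELD2 and MANF are small ER proteins that are secreted under stress; MANF binds HSPA5. Creld2 read 7.91, 7.53 and 7.25 in the mTERT KO livers, against 8.34, 8.43 and 7.58 in their mTERT WT littermates. For Creld2 the mTR KO livers read 8.02, 8.94 and 7.57, against 7.79, 8.36 and 7.56 in their mTR WT littermates. Manf read 7.34, 6.91 and 6.88 in the mTERT KO livers, against 7.51, 7.24 and 6.95 in their mTERT WT littermates. For Manf the mTR KO livers read 7.32, 7.61 and 7.21, against 7.32, 7.56 and 7.06 in their mTR WT littermates. Both were highest in mTR KO 2 and lowest in mTERT KO 3, and their genotype groups overlapped.

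Xbp1 mRNA is itself the substrate of IRE1, and the array gives 1 value for the gene that does not part its spliced from its unspliced form. Xbp1 read 8.30, 8.78 and 9.06 in the mTERT KO livers, against 8.89, 8.75 and 8.84 in their mTERT WT littermates. For Xbp1 the mTR KO livers read 8.39, 8.67 and 8.74, against 8.27, 8.80 and 8.66 in their mTR WT littermates. The low values were those of set 1 in 3 of the 4 groups, and no genotype group stood apart.

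**Figure D1:**
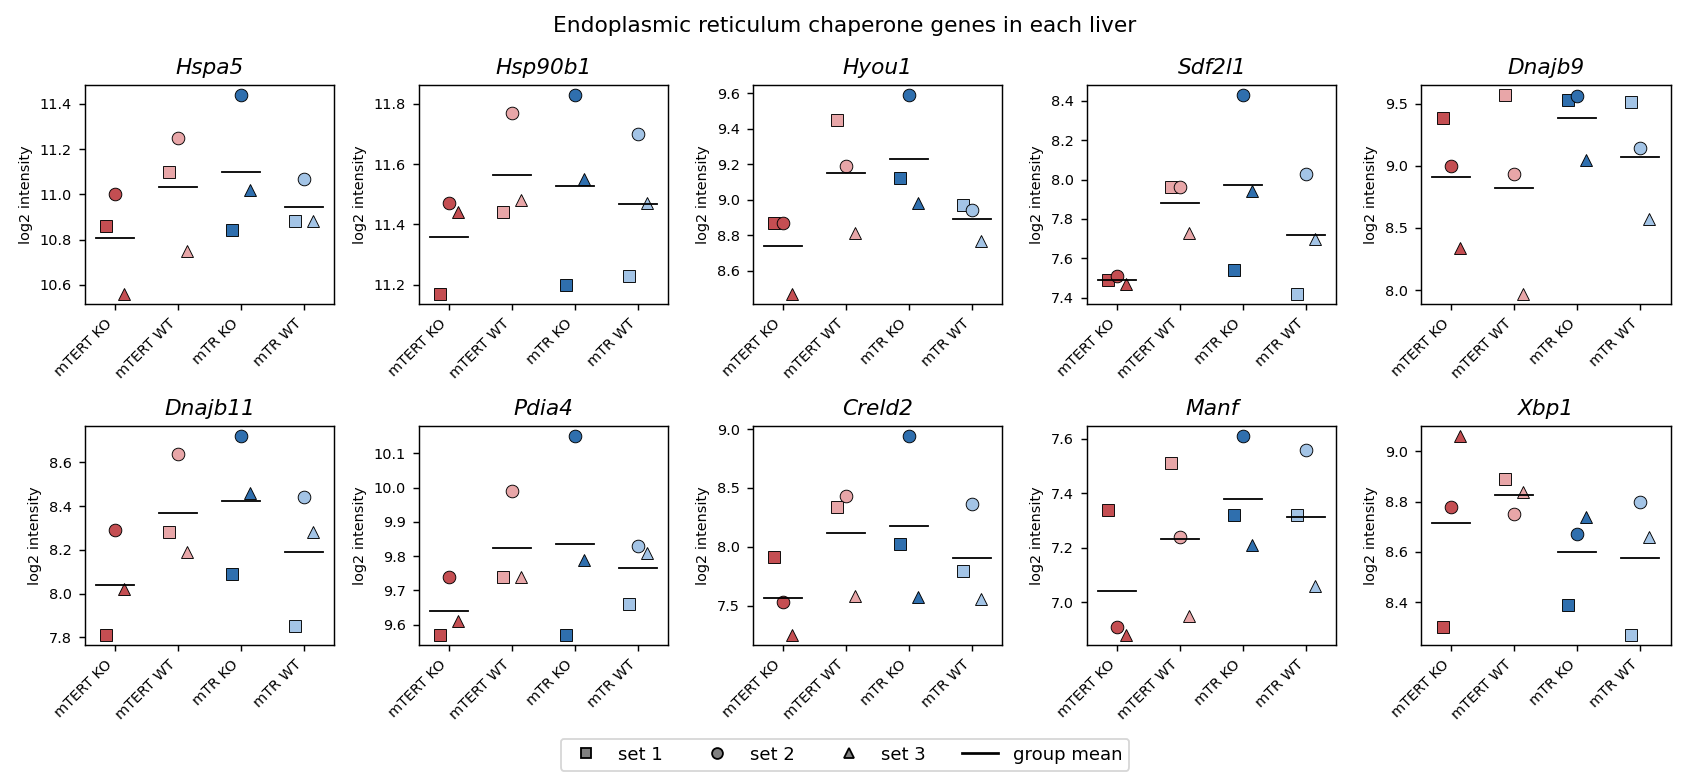
Log2 intensity (vertical axis, not starting at 0) of each of the 10 genes in the 12 livers, by group; symbols mark the set and lines the group means. The mTR KO liver of set 2 is the highest of all for 8 of 10 genes, and Sdf2l1 lies between 7.47 and 7.51 in the 3 mTERT KO livers.

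Ordered by group mean, mTR KO was highest and mTERT KO lowest for 7 of the 10 genes: Hspa5, Hyou1, Sdf2l1, Dnajb11, Pdia4, Creld2 and Manf. Sdf2l1, for example, averaged 7.97 ± 0.449 for mTR KO, 7.89 ± 0.133 for mTERT WT, 7.72 ± 0.305 for mTR WT and 7.49 ± 0.023 for mTERT KO (SD, n = 3 each). The same order held for Hyou1, at 9.23 ± 0.32 for mTR KO, 9.15 ± 0.324 for mTERT WT, 8.89 ± 0.105 for mTR WT and 8.74 ± 0.232 for mTERT KO (SD, n = 3 each). Hsp90b1 was highest in mTERT WT, Dnajb9 lowest in mTERT WT, and Xbp1 highest in mTERT WT and lowest in mTR WT. The order is a description: in all 30 pairs of groups that stand next to each other in it, the ranges overlapped.

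Loss of mTERT went with lower chaperone values within litters, in a pattern that no single gene carried past the test. Of the 10 genes, 8 were lower in KO than in WT in 3 of 3 mTERT litters, where 9.69% of the 20197 probes tested were. Dnajb9 and Xbp1 were the exceptions. The median log2 difference over the 10 genes was -0.214, with 9 below 0, against a median of 0.0119 over all 14159 genes tested, of which 54.5% were above 0. With 1 mTERT array left out, the median ran from -0.357 without mTERT WT 3, with 10 of 10 below 0, to -0.169 without mTERT WT 2, with 9 below 0. It was -0.243 with 9 below 0 without mTERT WT 1, which like mTERT WT 3 holds muscle transcripts. Without mTERT WT 3, both mTERT WT livers that remain hold pancreas transcripts. The members correlate with one another, as described further on, so that 8 of 10 is not 8 independent observations. Higher values in 3 of 3 litters were seen for 0 of 10 genes and 13.9% of all probes. Sdf2l1 was the 1 gene whose groups did not overlap, lower in KO, as for 1.86% of all probes; 0 of 10 were higher without overlap, against 2.47% of all.

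By gene, Creld2 differed by -0.56 (SE 0.348), with litter differences of -0.43, -0.90 and -0.33. Hyou1 differed by -0.41 (SE 0.193) and by -0.58, -0.32 and -0.34 within litters, Sdf2l1 by -0.40 (SE 0.205) and by -0.47, -0.45 and -0.27. These 3 genes had the lowest mean differences over the 3 litters, although in set 1 alone Xbp1 was at -0.59. Dnajb11 differed by -0.33 (SE 0.203), Hspa5 by -0.23 (SE 0.177), Hsp90b1 by -0.20 (SE 0.175), Manf by -0.19 (SE 0.186), Pdia4 by -0.18 (SE 0.141) and Xbp1 by -0.12 (SE 0.19), and Dnajb9 by 0.08 (SE 0.386). With limma, 0 of the 10 passed, each at an adjusted p of 1, and 0% of all probes passed. At an unadjusted p under 0.05 limma counted 0 of the 10 and 1.4% of all probes. The 95% interval of Hspa5 ran from -0.61 to 0.16 and that of Hyou1 from -0.83 to 0.01, so that both no difference and a fall of that size lie within the intervals. With the litter as a block limma again called 0 of 10, but 6 of the 10 had an unadjusted p under 0.05, where 5.13% of all probes did, and the lowest adjusted p was 0.678, for Sdf2l1.

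Pancreas transcripts differed within 2 of these litters, with KO above WT in set 1 (8.60 and 6.49) and below it in set 2 (3.79 and 7.87). In set 3 both mTERT livers were free of them, and there 8 of the 10 genes were lower in KO, between -0.34 for Hyou1 and -0.04 for Hsp90b1, while Dnajb9 was at 0.37 and Xbp1 at 0.21. The WT of set 3 is 1 of the 2 livers with muscle transcripts, whose part in the result was not tested. Without the 5 arrays that carried pancreas transcripts, which leaves mTERT KO 2 and 3 against mTERT WT 3, the median was -0.0458 with 7 of 10 below 0; Hspa5 was then at 0.03 and Creld2 at -0.19, with adjusted p of 1 in limma. The fit with the pancreas mean as a covariate had 9 of 10 below 0.

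Loss of mTR went with values of the opposite sign. All 10 genes had a mean log2 difference above 0 between mTR KO and mTR WT, with a median of 0.193, against -0.0158 over all genes tested, of which 44% were above 0. Hyou1, Sdf2l1, Dnajb9, Dnajb11 and Creld2 were higher in KO in 3 of 3 litters, which makes 5 of 10 where 10.6% of all probes were. Lower values in 3 of 3 litters were seen for 0 of 10 genes and 14.8% of all probes. Hyou1 alone had groups that did not overlap, higher in KO, as for 1.84% of all probes; 0 of 10 were lower without overlap, against 2.64% of all.

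Hyou1 differed by 0.34 (SE 0.193), and by 0.16, 0.66 and 0.21 within the litters of sets 1 to 3. Dnajb9 differed by 0.31 (SE 0.386), Creld2 by 0.27 (SE 0.348), Sdf2l1 by 0.25 (SE 0.205) and Dnajb11 by 0.23 (SE 0.203). The other 5 lay between 0.02 for Xbp1 and 0.16 for Hspa5. With limma 0 of the 10 passed, each at an adjusted p of 1, as did 0% of all probes, and at an unadjusted p under 0.05 it counted 0 of 10 against 0.965% of all probes. With the litter as a block it called 0 of 10 and counted 4 of 10 at an unadjusted p under 0.05, against 4.21% of all probes.

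The difference was largest in the litter of set 2 for Hspa5 (0.36), Hsp90b1 (0.13), Hyou1 (0.66), Sdf2l1 (0.4), Dnajb11, Pdia4 and Creld2. Creld2 was 0.59 higher in KO there, and 0.22 and 0.01 in sets 1 and 3, and Pdia4 was at 0.32, against -0.09 and -0.01. Dnajb11 was at 0.23, 0.28 and 0.18 in sets 1 to 3. The remaining genes had a different order: Dnajb9 and Manf were highest in set 3 (0.49 and 0.15) and Xbp1 in set 1 (0.12). Without mTR KO 2 the difference was -0.11 for Creld2, -0.01 for Hspa5, -0.09 for Hsp90b1, -0.09 for Pdia4, -0.05 for Manf and -0.01 for Xbp1, and it was 0.22 for Dnajb9, 0.16 for Hyou1, 0.08 for Dnajb11 and 0.02 for Sdf2l1, with a median of -0.011. The median was 0.0861 without mTR WT 1 and 0.0957 without mTR WT 3. mTR KO 2 held no pancreas transcripts (3.87), and its hepatocyte mean of 12.85 lay within the range of the other arrays. Without the 5 arrays with pancreas transcripts, which leaves mTR KO 2 and 3 against mTR WT 1 and 3, the median was 0.344 with 10 of 10 above 0. Sdf2l1 was then at 0.62 (SE 0.182) and Dnajb11 at 0.52 (SE 0.182), both at an adjusted p of 0.919 in limma.

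**Figure D2:**
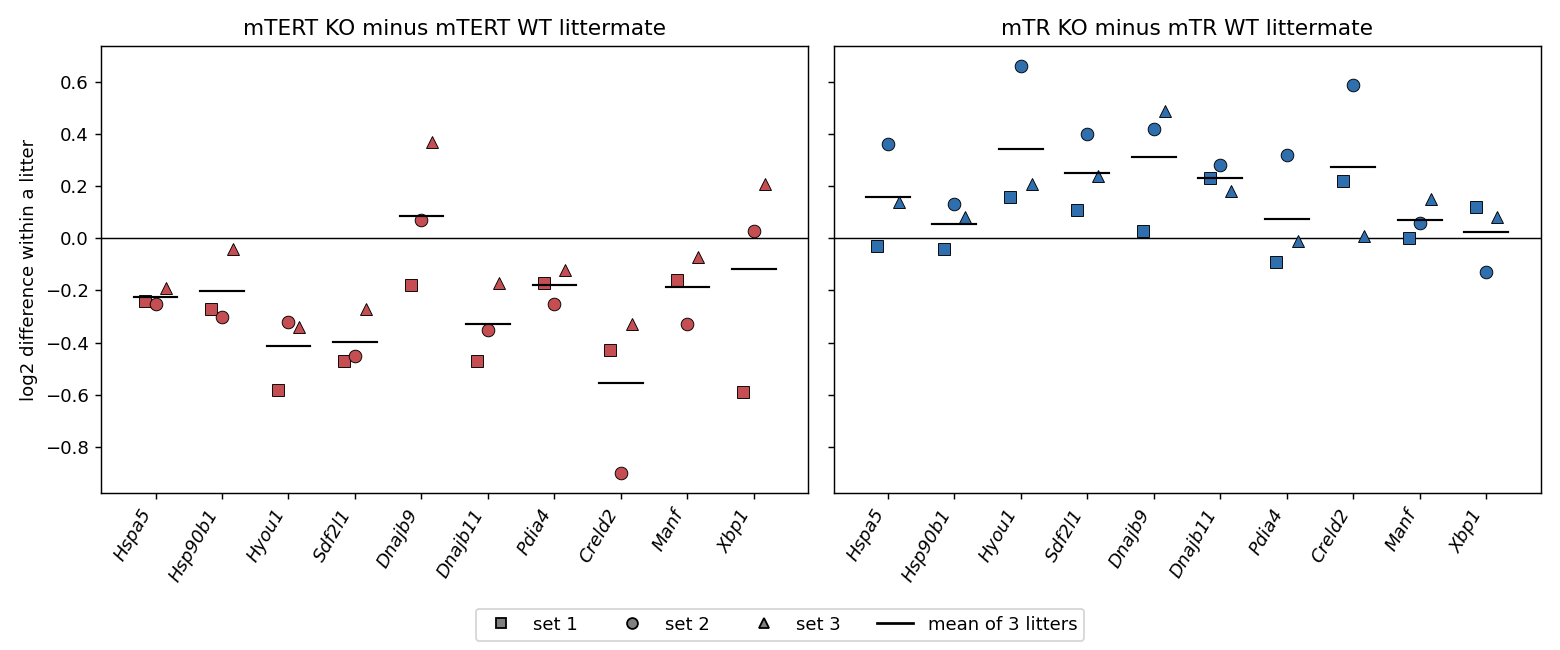
Log2 difference between a KO liver and its WT littermate for each gene, mTERT line on the left and mTR line on the right; symbols mark the set and lines the mean of 3 litters. In the mTERT line 8 genes lie below 0 in all 3 litters, and in the mTR line 5 genes lie above 0 in all 3, with Hyou1 at 0.66 and Creld2 at 0.59 in set 2.

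The difference between both KO effects, mTR minus mTERT, was above 0 for all 10 genes, with a median of 0.322, against -0.0263 over all genes tested, of which 43.3% were above 0. Hyou1, Sdf2l1, Dnajb11 and Creld2 were lower in KO in 3 of 3 mTERT litters and higher in 3 of 3 mTR litters, as were 1.22% of all probes, and 0 of 10 did the opposite, as 2.66% of all probes did. The test of the difference itself gave 0.83 (SE 0.492) for Creld2, 0.75 (SE 0.273) for Hyou1, 0.65 (SE 0.29) for Sdf2l1 and 0.56 (SE 0.287) for Dnajb11, and limma called 0 of 10, each at an adjusted p of 1, with 0% of all probes called. Hyou1 and Sdf2l1 had unadjusted limma p of 0.0178 and 0.0461, where 1.45% of all probes lay under 0.05. With the litter as a block 5 of 10 did, against 6.26% of all probes, and the lowest adjusted p in limma was 0.751. Hspa5 was at 0.38 (SE 0.251), and the other 5 lay between 0.14 for Xbp1 and 0.26 for Hsp90b1. Without mTR KO 2 the difference was 0.45 for Creld2, 0.57 for Hyou1 and 0.42 for Sdf2l1.

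The WT groups were compared with each other as well. mTR WT was below mTERT WT for 8 of 10 genes, with a median of -0.131, against 0.0104 over all genes, and Hyou1 was at -0.26 (SE 0.193). The limma test called 0 of 10 and 0% of all probes, with 0 of 10 at an unadjusted p under 0.05 against 2.6% of all probes. Without the 5 arrays with pancreas transcripts, which include mTERT WT 1 and 2, only 4 of 10 were below 0 and the median was 0.0322. Averaged over both lines, the KO effects were near 0: the median was -0.053, and 9 of 10 genes lay between -0.14 for Creld2 and -0.03 for Hspa5, with Dnajb9 at 0.20. This direction depended on the livers used: without the 5 arrays with pancreas transcripts all 10 were above 0 with a median of 0.174, and without mTR KO 1 7 of 10 were, with a median of 0.0107. Limma called 0 of 10 and 0% of all probes in that average, with 0 of 10 at an unadjusted p under 0.05 against 0.708% of all, and 1 of 10 with the litter as a block, against 3.16% of all.

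Most of the chaperone genes correlated with one another across livers, in 2 overlapping groups. Over the 12 livers, which share litters and lines, Hsp90b1, Dnajb11, Pdia4 and Sdf2l1 correlated with one another at a Pearson r of 0.840 to 0.933. Hyou1, Creld2 and Manf formed the second group, at 0.772 to 0.877, which Dnajb9 joined at 0.617 to 0.790. Hspa5 lay with both, at 0.831 with Sdf2l1 and 0.856 with Creld2. Between the groups values ran from -0.14 for Hsp90b1 with Dnajb9 to 0.772 for Sdf2l1 with Creld2, as high as the lowest pair within the second, so that the groups, drawn after the values were seen, are not sharply parted. Xbp1, which helps to induce the others, had lower values, at -0.02 with Hspa5 and -0.565 with Dnajb9, and its highest value was 0.571 with Hsp90b1. The median over 45 pairs was 0.617, with 29 above 0.5, and without mTR KO 2 it was 0.514 with 23 above 0.5. The share of such pairs among other genes was not computed. In the set 1 comparison given further on, Hsp90b1, Dnajb11, Pdia4 and Sdf2l1 were at -0.33, -0.37, -0.20 and -0.25. Hyou1, Creld2, Manf and Dnajb9 were at 0.15, 0.11, 0.19 and 0.68 there, so the 2 groups had opposite signs. The part of the set number in these correlations was not tested.

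**Figure D3:**
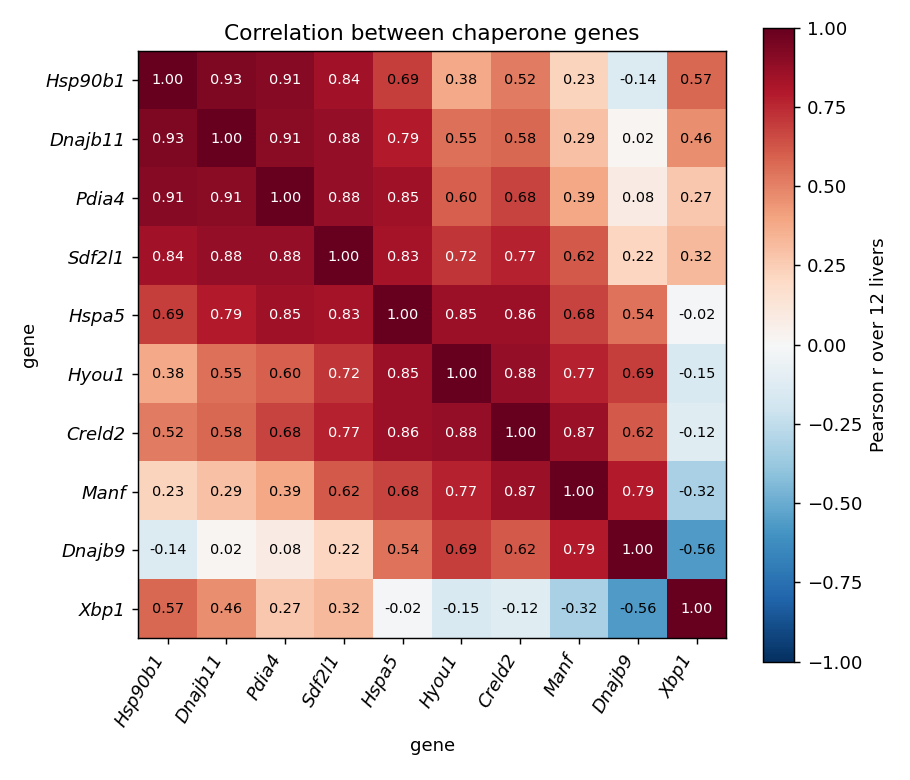
Pearson correlation over 12 livers between each pair of the 10 genes, from -1 in blue to 1 in red. Hsp90b1, Dnajb11, Pdia4 and Sdf2l1 form a block at 0.840 or above, Dnajb9 goes with Manf (0.790) and Hyou1 (0.694), and Xbp1 goes with few of the others.

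Of all other genes tested, that most like the mean of the 10 members, each taken relative to its own mean over the livers, was Hsp90aa1, the stress-inducible Hsp90 of the cytosol, at an r of 0.920 over 12 arrays. It was also the first over the 7 arrays with no pancreas transcripts, at 0.973. These 7 arrays are part of the 12 and include mTR KO 2, so the second r is no separate support. The genes named were picked for the highest r among all genes tested, and the r that unrelated genes reach was not computed. Hsp90aa1 read 10.10, 10.24 and 10.14 in the mTERT KO livers, against 10.52, 10.78 and 10.07 in their mTERT WT littermates. For Hsp90aa1 the mTR KO livers read 10.10, 11.13 and 10.47, against 10.35, 10.72 and 10.38 in their mTR WT littermates. It was highest in mTR KO 2, like 8 of the 10 members. Without mTR KO 2 its r was 0.851. Over 12 arrays it was followed by Fam216a (0.894), Ubxn4 (0.893), which encodes an ER membrane protein that aids degradation, Fam228b (0.885) and Gfpt1 (0.863), the entry enzyme of the hexosamine pathway. Over the 7 arrays it was followed by Ncbp1 (0.966), Cct7 (0.964), a subunit of the cytosolic chaperonin, 1700016K19Rik (0.954) and Sel1l (0.952), the adaptor of the ER degradation ligase.

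**Figure D4:**
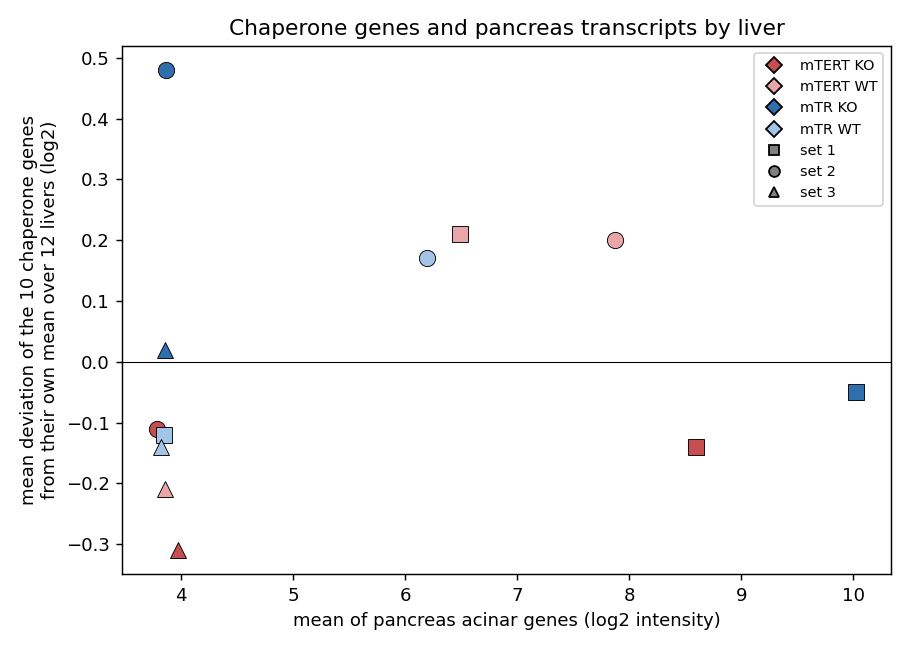
Mean deviation of the 10 genes from their own means over 12 livers (vertical axis, log2) against the mean of 19 pancreas acinar genes (horizontal axis, log2 intensity), 1 point per liver. The highest liver, mTR KO 2 at 0.48, has no pancreas transcripts, and the liver with the most, mTR KO 1 at 10.02, lies at -0.05.

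The order of the livers by chaperone level was not that of their pancreas transcripts. Taking each gene relative to its own mean, the 10 genes averaged 0.48 in mTR KO 2 and -0.31 in mTERT KO 3, both without pancreas transcripts. Of the 5 livers with them, mTERT WT 1 was at 0.21, mTERT WT 2 at 0.20 and mTR WT 2 at 0.17, while mTERT KO 1 was at -0.14 and mTR KO 1 at -0.05. The 3 that lay above 0 were WT livers, and the 2 below 0 were KO livers of set 1 with higher pancreas levels. The part of these transcripts in the results was not tested.

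Between set 1 and the other sets, 4 of the 10 genes passed in limma, close to the 38.2% of all probes that did. With group means removed, set 1 was set against sets 2 and 3, a comparison chosen because earlier results had shown set 1 to stand apart. Hsp90b1 read 11.17 to 11.44 in set 1 (median 11.22, n = 4) and 11.44 to 11.83 in sets 2 and 3 (median 11.51, n = 8), a difference of -0.33 (SE 0.0838, limma adjusted p 0.00902). Dnajb11 fell by 0.37 in set 1 (SE 0.101, limma adjusted p 0.0127) and Xbp1 by 0.32 (SE 0.101, limma adjusted p 0.0245). These 3 genes were therefore lower in set 1.

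Dnajb9 rose by 0.68 in set 1 (SE 0.204, limma adjusted p 0.0212), at 9.38 to 9.57 in set 1 (median 9.52) and 7.97 to 9.56 in sets 2 and 3 (median 8.97). Its set 1 liver was above the mean of the other 2 in 4 of 4 groups, and that of Hsp90b1, Dnajb11 and Pdia4 was below it in 4 of 4 groups. Among all probes 24.1% were higher and 29% lower in 4 of 4 groups. Thus 4 of 10 genes passed, close to the 38.2% of all probes that passed, 17.1% higher and 21.1% lower, and at an unadjusted p under 0.05 there were 5 of 10 against 47.6% of all. Neither share is a result about chaperones. Hspa5 (-0.07), Creld2 (0.11), Hyou1 (0.15), Manf (0.19), Pdia4 (-0.20) and Sdf2l1 (-0.25) did not pass. These calls depended on single livers. Without mTR KO 1 Hsp90b1 (adjusted p 0.0514), Dnajb11 (0.0584) and Xbp1 (0.0629) did not pass in limma. Without mTR WT 1 Dnajb9 (0.056), Dnajb11 (0.0586) and Xbp1 (0.0986) did not, and without mTERT KO 1 neither Dnajb9 (0.0642) nor Xbp1 (0.135) did. Dnajb9 was at 0.106 without mTERT WT 1, and Pdia4 passed at 0.049 without mTERT WT 3. The 4 livers of set 1 come from 2 litters, and 2 of the 4 hold the most pancreas transcripts; with the pancreas mean as a covariate Dnajb9 and Xbp1 no longer passed in limma (adjusted p 0.0993 and 0.118). Without the 5 arrays with pancreas transcripts, where set 1 is mTR WT 1 alone, 0 of 10 passed and the lowest limma adjusted p was 0.199. With a trended and robust eBayes fit 3 of 10 passed, and Dnajb9 (0.0685) did not.

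Among the other genes of the pathway limma called none in either line, with an adjusted p of 1 throughout, where 0% of all probes were called. Among 21 further folding genes the median was -0.035 in the mTERT line, with 15 below 0, and 0.0419 in the mTR line, with 13 above 0. Pdia6, a disulfide isomerase that also restrains IRE1, differed by -0.23 (SE 0.115) between mTERT KO and WT and by 0.16 (SE 0.115) between mTR KO and WT. Pdia5, a further isomerase, differed by -0.19 (SE 0.119) and 0.09 (SE 0.119), and Uggt1, the sensor of misfolded glycoproteins, by -0.14 (SE 0.111) and 0.11 (SE 0.111). These 3 genes had the signs of most of the members in both lines.

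Among 14 genes of ER-associated degradation, 10 were below 0 in the mTERT line (median -0.0235) and 12 above 0 in the mTR line (median 0.101). Sel1l was at -0.11 (SE 0.143) and 0.21 (SE 0.143) in the mTERT and mTR lines, and Derl3, which moves misfolded chains out of the ER, at -0.24 (SE 0.249) and 0.29 (SE 0.249). Ube2j1, a ubiquitin-conjugating enzyme of the ER membrane, had the smallest p of the list in the mTERT line and the opposite signs, at 0.14 (SE 0.121) and -0.12 (SE 0.121). Edem2, which trims glycans of misfolded proteins, was at -0.02 (SE 0.101) and 0.16 (SE 0.101). Derl3 is also strong in secretory cells such as those of the pancreas. It read 4.84 to 5.47 in the 5 livers with pancreas transcripts and 4.63 to 5.55 in the other 7, near the background of 4.34. The part of these transcripts in its differences was not tested. Of 15 genes of translocation and secretion, 11 were below 0 in the mTERT line (median -0.0731) and 9 above 0 in the mTR line (median 0.0182), with Spcs3, a signal peptidase subunit, at -0.19 (SE 0.142) and 0.12 (SE 0.142). SPCS1 of the same complex had the smallest p of the list in the mTR line, with Spcs1 at 0.04 (SE 0.118) for mTERT and -0.16 (SE 0.118) for mTR.

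The PERK and ATF4 arm did not share this pattern of signs. Of its 13 genes tested, 9 were above 0 for mTERT (median 0.152) and 5 for mTR (median -0.0278). These counts include Ddit3, Fgf21 and Atf3, whose means were not above background. Those genes were at 0.30, 0.19 and 0.02 for mTERT and at 0.02, -0.03 and -0.15 for mTR. Atf4 was at 0.22 (SE 0.114) and Trib3, an ATF4 target, at 0.30 (SE 0.162) in the mTERT line. Asns, the asparagine synthetase gene, was at 0.41 (SE 0.788) there. It read 6.98, 6.53 and 4.82 in mTERT KO and 6.62, 5.82 and 4.65 in mTERT WT, so it varied between livers of both genotypes. In the mTR line Asns was at 1.94 (SE 0.788), with readings of 6.37, 5.28 and 8.66 in KO and 4.62, 5.02 and 4.86 in WT. The difference of Asns was larger than that of any member in the line. So were those of the stress-induced genes Nupr1, at 0.81 (SE 0.605), and Ddit4, at 0.71 (SE 0.678). For Nupr1 only mTR KO 1, the liver with the most pancreas transcripts, stood out, at 6.91. The values 4.17 for mTR KO 2 and 4.21 for mTR KO 3 lay within the mTR WT range of 4.1 to 4.6. Whether pancreas transcripts account for the difference of Nupr1 was not tested. Asns was highest in mTR KO 3, while 8 of the 10 chaperone genes were highest in mTR KO 2. Of the 10 sensors and factors tested, 7 were above 0 for mTERT and 5 for mTR, and Eif2ak3, which encodes PERK, was at 0.20 (SE 0.155) and 0.36 (SE 0.155).

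The cytosolic heat shock genes, which answer to a different factor, had medians of -0.0315 (mTERT line) and -0.0218 (mTR line), with 3 and 4 of 10 above 0. Hsp90aa1 was at -0.30 (SE 0.24) and 0.09 (SE 0.24), and Dnajb1, a cytosolic Hsp70 partner, at 0.26 (SE 0.207) and -0.29 (SE 0.207). The signs of Dnajb1 were opposite to those of 9 of the 10 members in the mTERT line and of all 10 in the mTR line.

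Other lists held calls in set 1 too, at shares to be read against the 38.2% of all probes called, and they are no result about the pathway. With the pancreas mean as a covariate 5669 probes were called, against 7709 without it. Without the 5 arrays with pancreas transcripts set 1 is mTR WT 1 alone, so that fit cannot show the part of these transcripts in the calls. Of the 21 further folding genes 9 fell and 1 rose in set 1 by limma, where 21.1% and 17.1% of all probes did. Erp44, a retrieval factor for folding enzymes, fell by 0.62 (SE 0.0671, limma adjusted p 3.24e-05) and Pdia3, the isomerase for glycoproteins, by 0.59 (SE 0.0852, limma adjusted p 0.000256). Of 15 genes of translocation and secretion 3 rose and 3 fell. Of 14 degradation genes 5 rose and 2 fell, among them Syvn1, the ligase itself, up by 0.93 (SE 0.178, limma adjusted p 0.0017), and Derl2, which fell by 0.41 (SE 0.0635, limma adjusted p 0.000393). In the ATF4 arm 3 of 13 genes rose and 0 fell, with Cebpb up by 1.35 (SE 0.17, limma adjusted p 0.000101). Of 10 cytosolic heat shock genes 3 rose and 2 fell, with Bag3, a partner of Hsp70, up by 0.68 (SE 0.0937, limma adjusted p 0.000193).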

How the data were processed

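The file holds log2 intensities of single arrays as deposited; per the submitters' processing notes GCOS 1.4, Affymetrix Expression Console and PLIER were used, with roles not given. Base 2 was inferred from the range of 2.62 to 13.83, and how the arrays were normalized or filtered is not given in the sources used here. Of 28853 probes 21789 had 1 gene symbol, 1621 several and 5443 none; 21698 were matched by Entrez identifier to RefSeq (GRCm38.p6) for current names. Tests used limma 3.58.1 under R 4.3.3: lmFit of 4 group means over 12 arrays and eBayes, two-sided, with Benjamini-Hochberg adjustment at 0.05 over the 20197 probes whose mean reached the 30th percentile (3.898); set 1 was a further term for the set comparison. SE is the moderated standard error. All 10 members passed this filter. The fit was tested on simulated data. Protein sequences were not used here. The number of arrays limits the precision.

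Sets are littermates per the series text. The set was read from the number in the label, which that text does not state explicitly. After removal of group means, each KO array was correlated with the WT array that shares its number: r was 0.692, 0.135 and 0.623 for mTERT, and 0.458, 0.151 and 0.552 for mTR; in both lines KO 2 correlated more with WT 3 (0.416 and 0.464). Named genes are the 10 members, list genes with the smallest p in a comparison and the 5 genes most like the members. The members, lists, comparisons and alternatives were chosen with earlier results of these data known. Alternatives covered normalization, filter, eBayes settings, litter block, pancreas transcripts, set 1, other probes and each array left out.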

Additional observations from a re-analysis of the deposited data

Results flagged for a closer look

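For 4 genes the KO liver was below its littermate in 3 of 3 mTERT litters and above it in 3 of 3 mTR litters. The difference between both KO effects, mTR minus mTERT, was 0.75 for Hyou1, 0.65 for Sdf2l1, 0.56 for Dnajb11 and 0.83 for Creld2 on the log2 scale. The test of that difference did not pass for any of the 4, at a limma adjusted p of 1 each. With the litter as a block, limma gave unadjusted p of 0.000844, 0.000562, 0.00125 and 0.00149 for these genes in the same order. The adjusted p was 0.751 for each. The 4 genes were picked by the signs of the same litter differences, so low unadjusted p-values follow in part from the choice. They are no separate support, and the 6.26% of all probes under 0.05 is not a fair comparison for picked genes.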

How the results depend on the processing

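Of the 10 genes, none passed in a KO comparison under any alternative run. With the litter as a replicate block the limma counts of called probes stayed at 0 in the mTERT, mTR, average and difference comparisons, and with the set number as a block at 0 between the WT groups; the lowest adjusted p among members was 0.678 for Sdf2l1 in the mTERT line. In the set 1 comparison the litter block left 7135 probes called and the same 4 members. Without the 5 arrays with pancreas transcripts the called probes numbered 72 for mTERT, 36 for the average, 38 for the difference, 97 between WT groups and 272 for set 1, where 7709 were called with all arrays. That fit has fewer samples, and its mTERT WT and set 1 are 1 array each, assumed to vary like the other groups. Without the 4 arrays of set 1 there was 1 call in each of the mTERT, mTR and average comparisons. Leaving out 1 array gave 0 to 41 calls for mTERT, 0 to 28 for the average, 0 to 30 for the difference and 0 to 42 between WT groups, the highest in each without mTERT WT 2, and 5831 to 7660 for set 1.

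Signs turned for small differences, and the cause was not tested. Without the pancreas-bearing arrays Hspa5 was at 0.03 and Xbp1 at 0.07 in the mTERT line, and Dnajb9 at -0.42 in the difference. Without set 1 Xbp1 was at 0.12 in the mTERT line, -0.03 in the mTR line and -0.15 in the difference. The second Pdia4 probe gave -0.34 in the mTR line, -0.26 in the difference and 0.55 for set 1, and the pancreas covariate gave -0.10 for Creld2 in set 1. With 1 array left out, the mTERT difference ran from -0.34 to 0.45 for Dnajb9 and -0.29 to 0.09 for Xbp1. The mTR difference ran from -0.01 to 0.29 for Hspa5, -0.09 to 0.22 for Hsp90b1, -0.09 to 0.20 for Pdia4, -0.11 to 0.58 for Creld2, -0.06 to 0.19 for Manf and -0.13 to 0.14 for Xbp1. The difference of effects ran from -0.14 to 0.65 for Dnajb9 and -0.07 to 0.31 for Xbp1, and the set 1 difference from -0.14 to 0.03 for Hspa5 and -0.02 to 0.27 for Creld2.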
